A study of Mus musculus with 2 samples.

Results

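The genes described here encode the subunits of the proteasome, taken as every protein-coding gene of GENCODE M21 (mouse build mm10) whose symbol starts with Psma, Psmb, Psmc or Psmd and a digit. The rule took 40 of 21911 genes and used no measured value. They are 7 alpha ring genes, the testis alpha gene Psma8, 7 constitutive beta ring genes, the immune beta genes Psmb8, Psmb9 and Psmb10, the thymus beta gene Psmb11, 6 ATPase genes, 11 non-ATPase genes and the 3 base assembly chaperones Psmd5, Psmd9 and Psmd10. The symbol rule also took Psmc3ip, a factor of meiotic recombination that is no proteasome subunit.

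DNase-seq cuts accessible DNA in nuclei with the enzyme DNase I, and was run on whole gastrocnemius, a calf muscle. The 1 group held 2 samples from adult male B6CASTF1/J mice, the F1 hybrid of C57BL/6J and CAST/EiJ, aged 18 to 20 months. The samples were labelled biological replicates 1 and 2 and had different biosample labels but the same donor label, so the spread between them may be technical. No treatment, control or younger group was analysed here, and no test between groups or p-value is given.

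The proteasome degrades proteins tagged with ubiquitin. Its core particle is a stack of alpha and beta rings that hides the peptidase sites, and a regulatory particle of ATPases and non-ATPase subunits binds, unfolds and feeds in the substrate. Interferon-gamma induces immune beta subunits that replace the constitutive catalytic subunits, and in skeletal muscle the proteasome carries out much of the protein loss of atrophy.

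Some regulatory sequences are shown here because the results turn on them. They are mm10 reference bases read 5′ to 3′ on the gene's strand, and capitals mark bases inside a footprint in both replicates, a footprint being a short stretch protected from DNase I within open DNA. The C57BL/6J-based reference says nothing about the CAST/EiJ allele of these hybrids. The first set gives the 120 bases just before a start site of Psmb5, Psmb6 and Psmb10. Psmb5 and Psmb6 encode constitutive catalytic subunits, and Psmb10 encodes an immune one. For Psmb5 and Psmb10 the start site is that of GENCODE. The Psmb6 start site is that of the RefSeq annotation, upstream of the GENCODE start.
Psmb5: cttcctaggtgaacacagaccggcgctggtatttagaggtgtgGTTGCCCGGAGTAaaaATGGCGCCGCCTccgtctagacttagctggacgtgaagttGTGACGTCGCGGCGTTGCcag
Psmb6: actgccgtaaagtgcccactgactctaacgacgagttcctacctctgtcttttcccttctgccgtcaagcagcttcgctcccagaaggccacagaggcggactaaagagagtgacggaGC
Psmb10: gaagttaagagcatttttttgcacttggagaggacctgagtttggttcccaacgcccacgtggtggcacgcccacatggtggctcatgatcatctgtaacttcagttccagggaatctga
The Psmb5 stretch (chr14:54618023-54618142, minus strand) holds footprints at its middle and its end, and 43 of its bases lay in a footprint in both replicates. In the Psmb6 stretch (chr11:70525237-70525356, plus strand) only the last 2 bases did, and none of the Psmb10 stretch (chr8:105938445-105938564, minus strand) did. The 2 Psmb6 bases belong to a footprint that runs on past the stretch, chr11:70525355-70525375 in replicate 2. It was centred 21 bp before the GENCODE start in both replicates, so the stretch leaves out most of it.

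The second set belongs to the other immune subunit genes. For Psmb8 the 140 bases of its strongest promoter peak before the start site are given (chr17:34197581-34197720, plus strand), and for Psmb9 the 30 middle bases of its footprints at chr17:34187377-34187406 and chr17:34187452-34187481 (minus strand), both in an annotated untranslated exon.
Psmb8: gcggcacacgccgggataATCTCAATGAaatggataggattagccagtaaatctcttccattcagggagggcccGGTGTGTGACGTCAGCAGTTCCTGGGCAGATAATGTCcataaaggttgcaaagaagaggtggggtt
Psmb9 site nearer its second start: CACGCCCCTTGCGCGATGATGGGGCGGGGC
Psmb9 site farther from it: CCTCTGTCGTCACCTGTCTCTGGGCAGATT
The long capital run of Psmb8 contains TGACGTCA, the full CRE (the cAMP response element bound by CREB and ATF factors), at bases 81 to 88. The nearer Psmb9 site contains GGGCGG, the box bound by SP factors, at bases 22 to 27.

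The third set shows members whose motif matches lay inside footprints of both replicates. It gives the 120 bases before the start sites of Psmb3 (chr11:97703279-97703398, plus strand), the member with the highest signal, and of the chaperone gene Psmd9 (chr5:123228070-123228189, plus strand). For Psma2 it gives 30 bases (chr13:14613105-14613134, plus strand). These lie upstream of the Psma2 record, in an annotated untranslated exon of another gene.
Psmb3: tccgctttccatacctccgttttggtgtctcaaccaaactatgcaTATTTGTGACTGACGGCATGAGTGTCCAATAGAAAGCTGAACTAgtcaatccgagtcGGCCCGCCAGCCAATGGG
Psmd9: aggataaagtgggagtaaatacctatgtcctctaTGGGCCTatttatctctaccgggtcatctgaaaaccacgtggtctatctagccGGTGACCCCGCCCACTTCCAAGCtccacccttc
Psma2: ggcccCTCTTGCGCATGCGCAAGGGtcaaa
Psmb3 had a CCAAT box, the site of the factor NF-Y, in each of its capital runs, at bases 71 to 75 and 113 to 117. Psmd9 had TGACCCCGC at bases 90 to 98, a match to the antioxidant response element described with the other motifs. In Psma2 a match to GCGCATGC (nuclear respiratory factor 1) on the plus strand overlapped another on the minus strand.

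Open chromatin stood at the start sites of nearly all members. A promoter was taken as 1 kb on both sides of each annotated protein-coding start site, and a peak counted with at least 1 bp. In replicate 1, 38 of 40 members had a promoter peak, against 65.7% of all 21911 genes. In replicate 2 the same 38 members had a peak, against 63.6% of all genes, so 38 had a peak in both replicates, against 62.5%. Psma8 and Psmb11 were without any promoter peak.

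The strength of a peak is the deposited signal of the strongest promoter peak. Its scale is not stated and each replicate was scaled on its own, so ranks are compared within a replicate. The percentile of a gene is the share of the genes with a promoter peak that lie below it. The members with a peak had a median signal of 5.25 in replicate 1 and 4.67 in replicate 2. The medians of all genes with a peak were 3.17 and 3.42. The median percentile of the members was 72.2 and 63.6. Of the 38 members, 16 lay in the top 25% in both replicates, against 23.5% of the genes with a peak in both. The 2 replicates ranked the members alike, with a median difference of 2.69 percentile points and a largest difference of 12.4, at Psmb6.

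**Figure D1:**
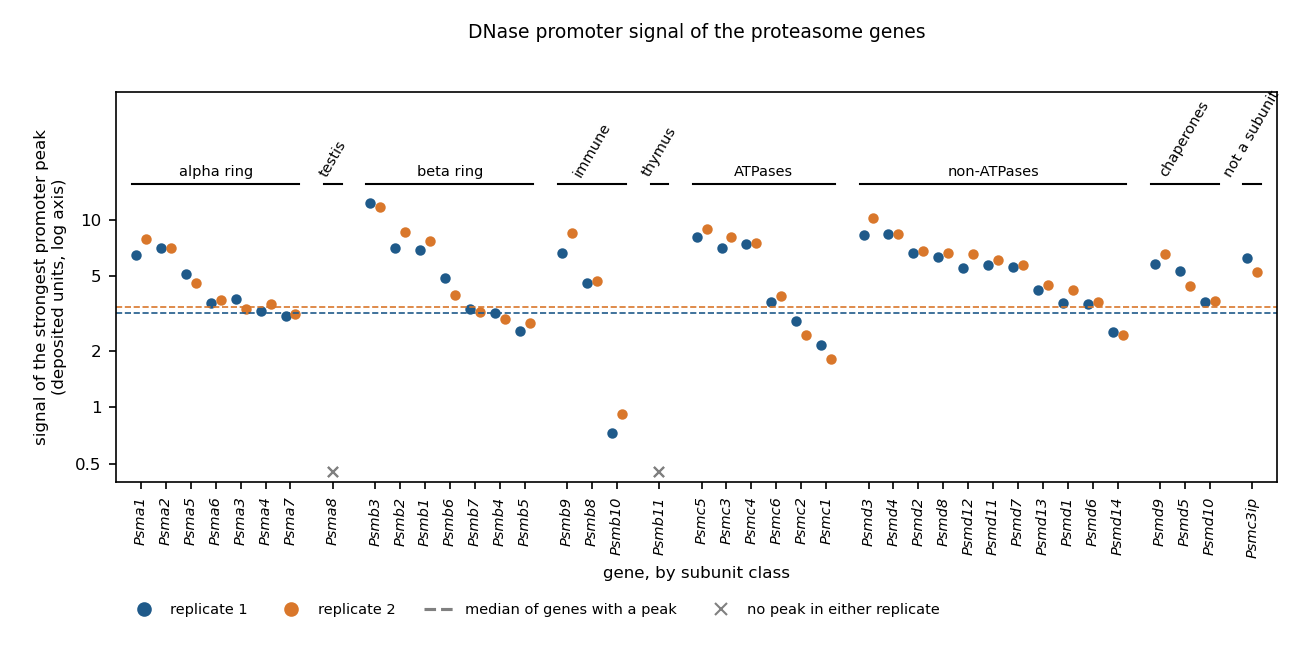
Signal of the strongest promoter peak (deposited units, log axis) for each of the 40 genes by subunit class, with blue points for replicate 1 and orange points for replicate 2. Dashed lines are the medians of all genes with a promoter peak (3.17 and 3.42). Psmb3 is the highest at 12.3 and 11.8, Psmb10 the lowest at 0.726 and 0.922, and crosses mark Psma8 and Psmb11, which had no peak.

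The alpha ring, which gates entry to the core, had a median signal of 3.81 and 3.72 over its 7 genes. Psma1 had 6.49 in replicate 1 and 7.94 in replicate 2. Psma2 had 7.08 and 7.05, and its strongest peak also lay within 1 kb of the start site of Mrpl32, a mitochondrial ribosomal protein gene. These were the highest alpha ring genes, at percentiles between 82.6 and 87.5. By mean percentile the lowest were Psma4, with a signal of 3.27 and 3.57, and Psma7, with 3.06 and 3.15. The remaining alpha ring genes, Psma3, Psma5 and Psma6, ranged from 3.33 to 5.15.

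At Psma6 the strongest peak was not at the most upstream annotated start. The second start site, at chr12 position 55398775, had a signal of 3.62 and 3.72 within 250 bp. The first, at position 55384222, had 0.386 in replicate 1 and no peak in replicate 2. Thus the accessible start of Psma6 in both samples was the downstream start.

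The constitutive beta ring had a median signal of 4.89 and 3.99. Psmb3, a structural subunit without a peptidase site, had the highest signal of all members, 12.3 and 11.8 (percentiles 99.4 and 97.7). Psmb2, also structural, had 7.10 and 8.62. Psmb4, another structural subunit, had 3.17 and 2.96. The structural genes thus held both the highest member and a gene near the middle of all genes. Psmb1, picked after its values were seen, had a strong peak at each of 2 start regions, with a signal of 6.94 and 7.74 at the upstream region and 4.63 and 4.60 at the downstream region. The upstream region also lay within 1 kb of Tbp, the gene of the TATA-binding protein.

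The constitutive catalytic subunits were not among the strongest members. Psmb5, which carries the chymotrypsin-like activity, had a signal of 2.56 and 2.81, at percentiles 42.5 and 42.4. Psmb6, of the caspase-like activity, had 4.89 and 3.99. Psmb7, of the trypsin-like activity, had 3.36 and 3.24. In both replicates the order was therefore Psmb6, Psmb7, Psmb5, and Psmb5 was the lowest of the beta ring. Psmb6 had 7 promoter footprints in replicate 1 and 1 in replicate 2, while Psmb5 had 11 and 10 and Psmb7 had 8 and 6.

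The immune subunit genes all had a promoter peak in both replicates but spread widely. Psmb9 replaces Psmb6 in the immunoproteasome and had a signal of 6.65 and 8.51, at percentiles 83.6 and 90.0. That is 1.36 times the Psmb6 signal in replicate 1 and 2.13 times in replicate 2. Psmb8 replaces Psmb5 and had 4.63 and 4.72, which is 1.81 and 1.68 times the Psmb5 signal. For these pairs the immune gene was the higher of the pair in both samples. Psmb10 replaces Psmb7 and had 0.726 and 0.922, only 0.216 and 0.285 times the Psmb7 signal. Beyond the 1 kb window a Psmb10 peak had 3.15 and 3.26, which the promoter signal and its rank leave out. Psmb10 was the lowest of the 38 members in both samples, at percentiles 15.2 and 15.1, and the next lowest member, Psmc1, lay at 37.1 and 29.0.

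Psmb9 did not have a peak to itself. Its strongest peak, chr17:34187341-34187520 in replicate 1, was also the strongest promoter peak of Tap1, a peptide transporter gene of antigen presentation that runs the other way, so the signal cannot be assigned to either gene. The peak lay inside the Psmb9 record, between its most upstream start site at position 34187764 and its second at position 34187219. Of the footprints in the Psmb9 promoter windows, 9 in replicate 1 and 8 in replicate 2, 8 of the first replicate overlapped a footprint of the second.

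Psmb8 had 2 peaks. The stronger, chr17:34197581-34197760 in both replicates, covered the most upstream GENCODE start and held the CRE shown in capitals. The weaker peak, at chr17:34198221-34198460 in replicate 1, had a signal of 1.02 and 1.08. The upstream peak was thus the main open site of Psmb8 in both samples. Of 7 and 5 promoter footprints, 4 of the first replicate overlapped a footprint of the second.

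At Psmb10 the strongest promoter peak lay downstream of the start site in both replicates. In replicate 1 it was chr8:105937561-105938220, whose middle was 554 bp inside the gene. A weaker peak of replicate 1, chr8:105938371-105938548 with a signal of 0.487, covered the start site, and replicate 2 had no peak there. The promoter held 1 footprint in replicate 1, at chr8:105938434-105938448 across the start, and 0 in replicate 2. Farther inside, over an exon and the starts of non-coding Psmb10 transcripts, a peak at chr8:105936961-105937220 had a signal of 3.15 and 3.26. Psmb10 was thus weak at the annotated start, and the highest peak of its record lay 1224 bp inside it. In the 120 bases shown, 85% of the bases are masked as repeats in the reference. Over the 1 kb on both sides of the start, 32.2% were masked at Psmb10, 33.6% at Psmb5 and a median of 21.3% over the 40 genes, and the part of masking in the Psmb10 values was not tested. The promoter peak of replicate 1 held 4 matches to GAAANNGAA, the core of sites bound by interferon regulatory factors (IRF), namely GAAAGTGAA, GAAAGCGAA and 2 copies of GAAAGAGAA. None was in a footprint in both replicates, and 4.47% of the genes with a peak had such a match in their strongest peak. The median width of those peaks was 220 bp, against 660 bp at Psmb10.

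**Figure D2:**
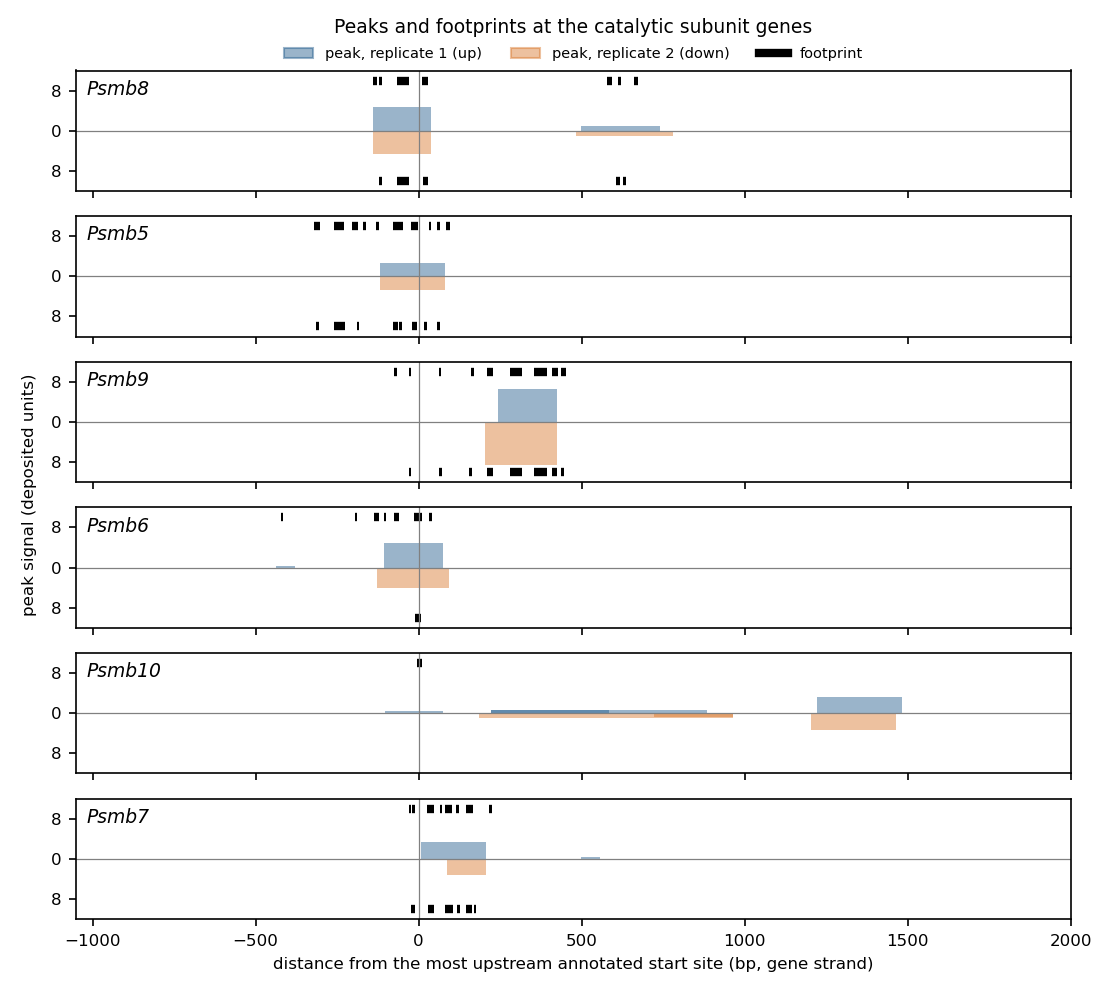
Peaks (bars, height is signal in deposited units, replicate 1 upward in blue and replicate 2 downward in orange) and promoter footprints (black marks) at the 3 immune genes, each above the constitutive gene it replaces. The x axis is the distance in bp from the most upstream annotated start site on the gene's strand. Psmb10 has low bars after the start, a bar of 0.487 across it in replicate 1 alone, and a higher bar of 3.15 and 3.26 beyond 1 kb, while Psmb8 and Psmb5 have peaks across the start.

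Leukocytes express immune subunits, and the leukocyte and endothelial markers were weak in these samples. Of 8 leukocyte markers, 5 had no promoter peak in either replicate, the pan-leukocyte gene Ptprc among them, and Spi1, Cd68 and Adgre1 ranged from 0.335 to 0.731 in replicate 1 and from 0.470 to 1.12 in replicate 2. All 4 endothelial markers had a peak, with medians of 0.792 and 1.21. All 8 skeletal muscle markers had a peak, with medians of 3.89 and 3.29, while 62.5% of all genes had a peak in both replicates. The median percentiles of the muscle markers were 58.4 and 48.3, near the middle of the genes with a peak. Psmb8 and Psmb9 had signals above all 3 detected leukocyte markers, and Psmb10 lay within their range. In bulk tissue, fewer cells of a type and a weaker signal per cell cannot be told apart, and the part of leukocytes in the immune subunit values was not tested.

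**Figure D3:**
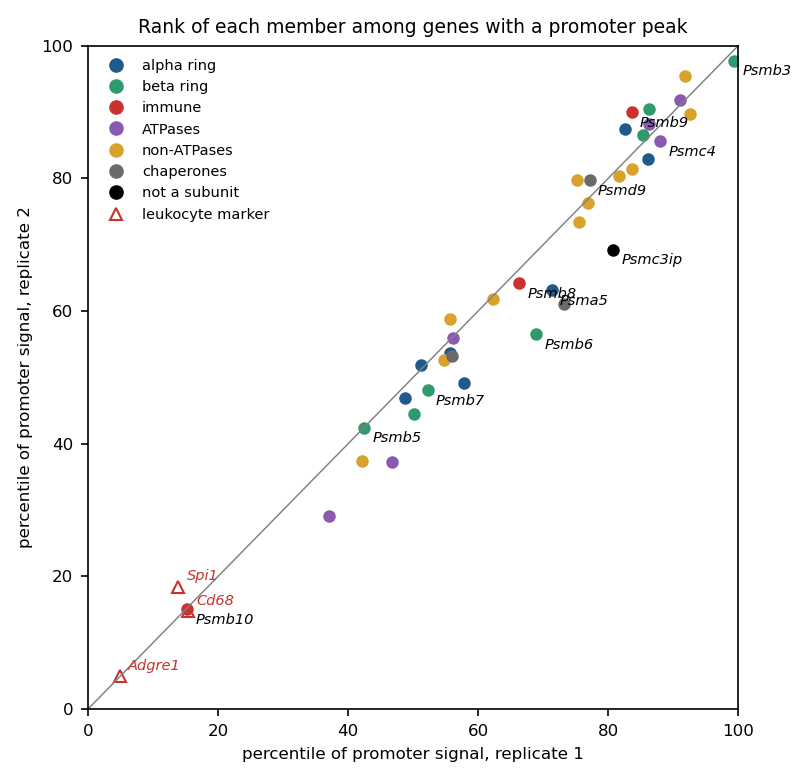
Percentile of the promoter signal among all genes with a promoter peak, replicate 1 on the x axis and replicate 2 on the y axis, for the 38 members with a peak (filled circles by class) and 3 leukocyte markers (open triangles). The grey line marks equal rank. Psmb8 and Psmb9 lie above percentile 64 in both replicates, while Psmb10 lies at 15.2 and 15.1, beside Cd68 at 15.3 and 14.7.

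The tissue-restricted subunits had no peak and no footprint at their start. Psma8, which replaces Psma7 in the germ line, had 0 peaks and 0 footprints in its promoter in both replicates. Psmb11, the catalytic subunit of the thymus proteasome, also had 0 of each, and neither gene had a peak in its body. Of the germ cell markers, Ddx4 and Sycp3 had no promoter peak, while Dazl had a signal of 3.80 and 4.29. Psmb11 is a neighbour of Psmb5 on chromosome 14, where Psmb5 had a peak and Psmb11 none.

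The 6 ATPases form the ring that unfolds substrates, and their median signal was 5.38 and 5.74. Psmc5 had 8.09 and 8.98, in a peak that also lay within 1 kb of Ftsj3, a gene of ribosome biogenesis. Psmc3 had 7.11 and 8.11. At the other end were Psmc2, with 2.89 and 2.43, and Psmc1, with 2.16 and 1.81. The ATPase genes thus spanned percentiles from 29.0 to 91.8. The other ATPase genes were Psmc4, with 7.41 and 7.55, and Psmc6, with 3.65 and 3.94.

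Psmc2 had a stronger peak inside the gene than at its start. The inner peak, chr5:21786621-21786820 in replicate 1, had a signal of 4.16 and 4.69 and overlapped an annotated untranslated exon of Psmc2. It lay 1338 bp from the start of the record. Psmc2 and Psmb10 were the members for which a peak outside the promoter windows had more signal than the promoter in both samples. The share of all genes with such a peak was not counted, so whether this is rare is not known.

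The non-ATPase subunits of the base and lid had a median signal of 5.59 and 6.09. Psmd3, a lid scaffold subunit, had 8.26 and 10.3. Psmd4, a receptor for ubiquitin chains, had 8.45 in replicate 1 and 8.45 in replicate 2. These ranked between percentiles 89.7 and 95.4. The lowest were Psmd6, a lid subunit, with 3.54 and 3.63, and Psmd14, the enzyme that removes ubiquitin from substrates, with 2.53 and 2.44. Psmd14 lay at percentiles 42.1 and 37.4, in the lower 50% of genes with a peak. The other 7 non-ATPase genes, Psmd1, Psmd2, Psmd7, Psmd8, Psmd11, Psmd12 and Psmd13, ranged from 3.61 to 6.80.

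The base assembly chaperones bind ATPases before the ring closes and are not part of the finished particle. Psmd9 had a signal of 5.80 and 6.57. Psmd5 had 5.35 and 4.43. Psmd10 had 3.64 and 3.68, in a peak shared with the autophagy gene Atg4a. All 3 thus lay within the range of the finished subunits. Psmc3ip, the gene that is no subunit, had 6.26 and 5.25.

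Where the peaks lay was alike for most members. The strongest peak covered an annotated start site in both replicates for 33 of 38 members, against 65.4% of genes with a peak in both. Its middle lay a median of 26.5 bp before the start site in replicate 1 and 25 bp before it in replicate 2, and over all genes 40.5 and 37.5 bp before. The strongest peaks of the 2 replicates overlapped for 38 of 38 members, against 95.4%. For 9 of 38 members the strongest peak lay within 1 kb of the start of another protein-coding gene in both replicates, against 18.7%. Beside Mrpl32, Tbp, Tap1, Ftsj3 and Atg4a, these neighbours were AY074887 at Psma4, Ss18l1 at Psma7, Dnajc2 at Psmc2 and Sirt3 at Psmd13.

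Footprints were found at nearly the same members as peaks. In replicate 1, 38 of 40 members had a footprint in a promoter window, against 64.1% of all genes. In replicate 2, 37 had, against 62.3%, and 37 had in both replicates, against 61.1%. The member with a footprint in replicate 1 alone was Psmb10. There were 288 promoter footprints in replicate 1 and 267 in replicate 2, with median lengths of 12.5 and 11 bp, against 11 bp over all genes in both. Of the member footprints, 69.1% of those in replicate 1 and 77.2% of those in replicate 2 overlapped a footprint of the other replicate. Over all genes the shares were 58.0% and 66.0%. The shares differ between the replicates in the same direction in both sets, and the files held 339656 footprints in replicate 1 and 234091 in replicate 2.

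The footprints clustered just before the start site. In the 50 bp before the start site nearest the strongest peak, 37 of 38 members (97.4%) had a footprint in replicate 1 and 35 (92.1%) in replicate 2, while 76.5% and 74.5% of all genes with a peak in both replicates did. In the first 50 bp after the start, 34 of 38 (89.5%) did in both replicates, against 67.4% and 64.7%. Beyond 350 bp downstream none of the 38 had a footprint in either replicate within the 500 bp counted. Over all genes with a peak, between 7.14% and 9.30% had a footprint in these downstream bins. The members' peaks were also stronger than those of all genes, and the part of peak strength in the footprint shares was not tested.

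**Figure D4:**
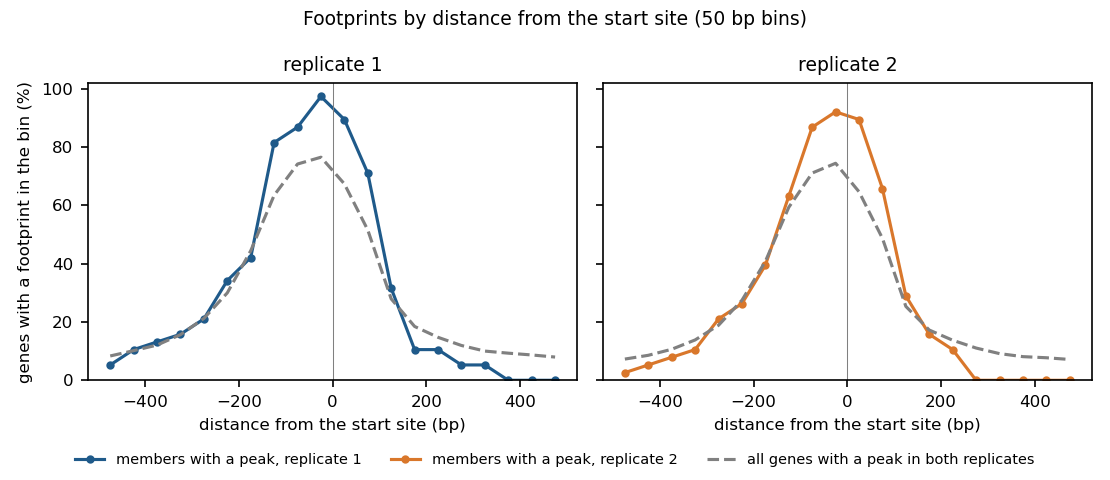
Percent of genes with a footprint in each 50 bp bin (y axis) by distance from the start site nearest the strongest peak (x axis, bp, gene strand), for the 38 members with a peak (solid lines) and all genes with a peak in both replicates (dashed), with a panel for each replicate. The member lines reach 97.4% and 92.1% in the bin just before the start, and the dashed lines 76.5% and 74.5%.

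Outside the promoter windows, 9 of 40 members had a peak in both replicates, against 40.9% of all genes. In replicate 1 alone the count was 17, against 50.9%, and in replicate 2 alone 11, against 42.6%. With a window of 500 bp it was 14 in both replicates, against 44.2%. The median number of body peaks per 10 kb was 0 for the members in both replicates, and 0.163 and 0 over all genes. Psma6 had 4 body peaks shared by the replicates, all in the intron before its accessible start, with signals from 0.386 to 1.48. Psmd9 had 4, of which the strongest, chr5:123171661-123171880, had 2.57 and 2.94. That peak lay in the Psmd9 record but upstream of all its protein-coding start sites, the first of which is at position 123228190. The Psmd9 peak at chr5:123181623-123181825 in replicate 1 also lay upstream of them, within 1 kb of the start of another gene, Hpd. Psmb7 had 3 with signals from 0.396 to 0.787 in replicate 1. At Psma2 a shared body peak of 5.72 and 6.50 lay at the start site of another protein-coding gene, AW209491, inside the Psma2 record. The strongest shared body peaks, at Psma2, Psmc2 and Psmb10, were thus above 3 in both replicates, and the remaining ones were below 3.

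Motifs were searched on both strands of the 300 bases around RefSeq start sites (GRCm38.p6, 250 bases before and 50 after), and 33 of 40 members matched a window there. Psma8, Psmb1, Psmb2, Psmb7, Psmc3, Psmd3 and Psmd7 were not in that table. Of the 33, 32 had a promoter peak in both replicates, and shares are given over these 32 and over 10648 genes with a window and a peak. The members' windows had a median GC content of 57.8%, against 61.7% over the 10648 genes. A match counted as in a footprint when its middle lay in a footprint in both replicates, so its ends can lie outside.

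The antioxidant response element (ARE), TGACNNNGC, is the site through which NFE2L1 and NFE2L2 raise transcription of proteasome genes. It matched in 5 of 32 members (15.6%), against 14.7% of the genes with a peak, so the share was near the background. The 5 were Psmb5, Psmb6, Psmc6, Psmd9 and Psmd12. At Psmb5 the match TGACGTCGC (bases 101 to 109 of the stretch shown) and at Psmd9 the match TGACCCCGC lay in a footprint in both replicates, and the other 3 did not. Over all genes with a peak, 22.4% of ARE matches lay in such a footprint. The related AP-1 site, TGANTCA, matched in 2 of 32, against 4.27%.

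ETS factor sites, CCGGAAG, matched in 11 of 32 members (34.4%), against 17.9%. YY1 sites, AANATGGC, matched in 6 of 32 (18.8%), against 8.47%. In percentage points these were the widest gaps between members and background among the 16 motifs, and they were not tested. Of the 15 ETS matches 2 lay in a footprint in both replicates (13.3%, against 33.1% over all genes with a peak), at Psmc6 and Psmd11. At Psmd11 the footprint of replicate 2 ended inside the match. IRF sites, GAAANNGAA, matched in 4 of 32, against 6.77%, and kappa B sites, bound by NF-kappa B, in 5 of 32, against 10.6%. TATA boxes, TATAAA, matched in 4 of 32, against 6.59%.

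The common promoter boxes were near the background in the share of windows with a match. GGGCGG, the SP box, matched in 19 of 32 members (59.4%), against 66.4%, and 26 of its 40 matches (65%) lay in a footprint in both replicates, against 43% over all genes with a peak. CCAAT matched in 12 of 32 (37.5%), against 38.5%. The nuclear respiratory factor 1 core, GCGCATGC, matched in 2 of 32, against 5.52%, at Psma2 with 4 matches and at Psmc5. Of these 5 matches 2 lay in a footprint in both replicates (40%), against 82.2% over all genes with a peak. The SP box was thus the most frequent motif of the members, as it was of all genes.

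The remaining motifs were found in few members. The E-box CACGTG matched in 3 of 32, against 10.2%, and the myogenic E-box CAGCTG, a site of MYOD1 and related muscle factors, in 3 of 32, against 15.2%. Heat shock factor sites, GAANNTTC, matched in 2 of 32, against 5.53%. The CRE TGACGTCA matched in 0 of 32, against 3.37%. FOXO sites, GTAAACA, matched in 0 of 32, against 2.43%, and MEF2 sites in 0 of 32, against 0.479%. FOXO factors drive atrophy genes and MEF2 factors muscle genes, and these letters were not in the windows searched. In the Psmd9 stretch shown, the ARE match and an SP match on the other strand (bases 95 to 100) overlap. The CRE of Psmb8 lies outside its RefSeq window, which surrounds a start farther downstream.

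**Figure D5:**
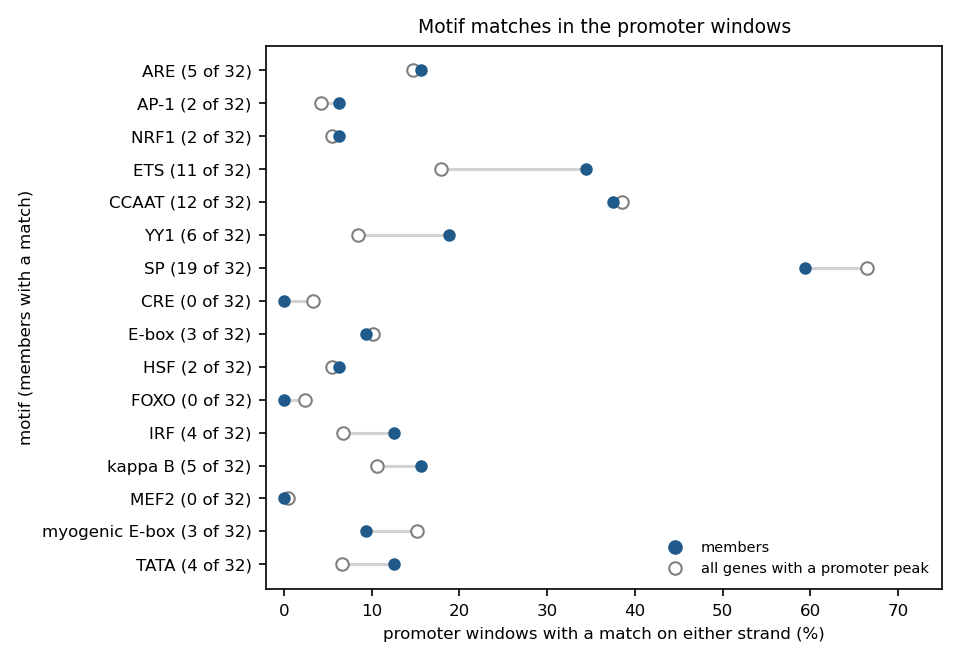
Percent of promoter windows with at least 1 match on either strand (x axis) for each of the 16 motifs (y axis, with the number of members that matched), for the 32 members with a window and a peak (filled circles) and 10648 genes with both (open circles). ETS (34.4% against 17.9%) and YY1 (18.8% against 8.47%) lie to the right of the background, and ARE (15.6% against 14.7%) lies beside it.

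The other genes of the pathway, 31 in all, had a promoter peak in both replicates in 31 of 31 cases, with median signals of 4.36 and 5.08. Nfe2l2 had 10.2 and 12.2 and Nfe2l1 8.90 and 8.95, and both encode transcription factors. Ngly1, the enzyme that removes sugars from NFE2L1, had 1.90 and 2.64, and the protease gene Ddi2, which cleaves NFE2L1, had 3.17 and 3.44. Among ubiquitin genes Ubb was highest at 8.55 and 9.15, and Uba1, the ubiquitin-activating enzyme, lowest at 2.93 and 2.41.

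The activators and core chaperones ranged like the subunits. Psme2, a subunit of the interferon-induced activator, had 6.53 and 7.33, in a peak within 1 kb of Rnf31. Its partner Psme1 had 1.77 and 1.83. The partners thus lay at percentiles 82.8 and 31.5 in replicate 1. The inhibitor Psmf1 had 2.97 and 3.35. The core chaperone Psmg1 had 6.03 and 7.12, and Psmg2, which pairs with it, had 1.91 and 2.40.

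Genes of antigen presentation and its interferon control ranged from 1.39 to 6.65 in replicate 1 and from 1.51 to 8.51 in replicate 2. The highest was Tap1, whose strongest peak is also that of Psmb9, so this range cannot be compared with that of the immune subunits. Tapbp, the peptide-loading factor tapasin, had 6.39 and 7.33. Nlrc5, the activator of class I genes, had 1.39 and 1.51. Irf1, an interferon regulatory factor gene, lay between them at 4.25 and 4.70. Of the subunits under other symbols, the ubiquitin receptor Adrm1 had 5.62 and 5.48 and Sem1 had 3.40 and 4.27. Among bound enzymes the deubiquitinase gene Uchl5 had 7.17 and 7.91 and Usp14, another, 3.82 and 3.94. In at least 1 replicate the strongest peak of Uchl5 also lay within 1 kb of the start of Trove2. The same held for Tapbp with Zbtb22, Psmg2 with Cep76 and Ngly1 with Oxsm.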

How the data were processed

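The authors deposited, per sample, 2 narrowPeak lists, a footprint list and a list of bases with a false discovery rate under 0.05, on mm10 per the labels. Column 7 of the peak lists holds the deposited signal, whose scale, like the read depth, is not given in the sources used here. Of the deposited p-value type columns, the false discovery rates were used only to count bases, which are not reported. The aligner and peak caller are not given in the sources used here. The inclusive lists held 131398 and 91567 peaks and the strict lists 86830 and 57869.

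Peaks and footprints were assigned to genes of GENCODE M21 with Python 3.11.15, numpy 2.4.6 and pysam 0.24.0, and the genome was indexed with samtools 1.23.1. Promoter sequences were taken from RefSeq (GRCm38.p6, the same assembly as mm10). The assignment recovered 2000 of 2000 peaks, 1000 of 1000 ranks and 1600 of 1600 motifs planted in simulated data.

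Members and lists were chosen with earlier results of these data known. Named were all immune, thymus and testis subunits, the constitutive partners, the 2 highest and 2 lowest members of each other class by mean percentile, members without a promoter peak, the 3 with most shared body peaks, and the 2 highest and 2 lowest genes of each pathway list. Genes outside that rule were named after their values were seen. A gene that the rule takes from the pathway lists is not reported here. Alternatives were each replicate alone, the strict list, other windows, the most upstream start alone, the better 50% of peaks, equal numbers of peaks, a peak overlap of 50%, motifs in peaks, and, added after seeing the data, leaving out Psmc3ip or members with a shared peak. With 1 group of 2 samples, no test was made and both values are given. For signals their spread also holds the separate scaling of the replicates.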

Additional observations from a re-analysis of the deposited data

How the results depend on the processing

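No paired analysis was possible because only 1 group was measured. Of 64 recomputed values, 58 stayed within 1.5 times the reported count or within 1 SD of the reported median, and 6 moved. The medians of a replicate alone lie within 1 SD by construction. Members with a promoter peak numbered 35 to 38 of 40 over the alternatives that kept all members. The median promoter signal, 4.96 ± 0.409 (SD, n = 2) as the mean of both replicates, was 4.67 and 5.25 in the replicates alone. Each replicate was scaled on its own, so this SD is no measure of biological spread alone. Members with a body peak beyond the promoter numbered 9 as reported, 11 to 17 with a replicate left out, and 14 with a promoter window of 500 bp. The cause was not tested, but a single list needs no second peak and a narrower window leaves more body. In the strongest peak of replicate 1 instead of the RefSeq window, CRE sites were found in 1 of 32 members (against 3.68% of the genes with a peak), heat shock factor sites in 0 (3.63%), the myogenic E-box in 1 (14.1%) and TATA boxes in 2 (3.29%). ETS sites were then in 13 (40.6%, against 17.9%) and YY1 sites in 5 (15.6%, against 8.61%), a narrower gap than those of the myogenic E-box and of IRF sites (12.5%, against 4.47%). Without the 9 members that share a peak, the median signal was 5.03, and without Psmc3ip 4.88. Depth is unknown, so whether a missing footprint could have been detected is not known.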

Other observations

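The shared footprint of Psmb8 and the farther Psmb9 site have the 10-base run CTGGGCAGAT in common, which was noticed after the sequences were seen and was not tested. It occurs in the RefSeq windows of 16 of 10648 genes with a promoter peak (0.150%), Psmb9 and Tap1 among them with their common promoter.

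At Psmb6 the replicates differed more than at any other member in rank, and 7 footprints in replicate 1 stood against 1 in replicate 2, although its strongest peak was centred 35.5 bp before the start site in both.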
